A study of Acidomyces sp. 'richmondensis' with 12 samples.

Results

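In mycelia of the acid-loving fungus Acidomyces richmondensis, 84 genes had at least about 2-fold more transcript in a strain lacking ArAceA than in the wild type, both without copper and after 6 h in 15 mM CuCl2, while copper moved their mean levels by less than 1 on the log2(FPKM + 1) scale in either strain. They are 84 of the 10043 genes of the table, or 0.836%. Of 584 genes within the same limits on level that stood at least that much higher without copper, 459 fell short of it in copper.

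The genes were chosen from the measured levels. Levels are FPKM, that is, fragments counted per kilobase of transcript after scaling by library size. For each group the mean of 3 libraries was taken as log2(mean + 1), and differences were formed on that log2 scale. A gene belonged if ∆ArAceA exceeded WT by at least 1 without copper and by at least 1 with copper. Its copper response had to lie between -1 and 1 in ∆ArAceA and between -0.5 and 1 in WT, its highest group mean had to reach 5 FPKM, and its mean over the 12 libraries had to stay under 1000 FPKM. These 4 differences chose the genes and are given below as a description. Where genes are said to be called by limma, that too is a description, and no limma p is printed for single genes. The level limits left 7122 genes. Of those 584 had the difference without copper, 125 also had it with copper, 88 also met the limit on copper in ∆ArAceA, and 84 met all conditions.

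The study compared strain MEY-1 (WT) with its ArAceA deletion (∆ArAceA), each grown for 4 days in liquid MMC medium, washed, and moved for 6 h to fresh MMC with no added CuCl2 or with 15 mM CuCl2. Each of the 4 groups held 3 separate cultures, so n = 3 for every mean ± SD that follows. The title names CRISPR/Cas9 as the editing tool. How many deletion clones were used was not given in the sources used here, and a complemented strain was not analysed here, so the deletion and any other difference between these 2 strains cannot be told apart. In bulk mycelium more RNA per cell and more cells of a kind that holds the RNA cannot be told apart either.

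The name ArAceA is that of AceA, a copper-fist transcription factor of Aspergillus fumigatus. Regulators of the AceA type bind DNA when loaded with copper. In Aspergillus fumigatus AceA is known to raise genes for copper export, such as the P-type ATPase gene crpA, when copper is in excess. Copper is an essential cofactor of oxidases and superoxide dismutase and becomes toxic when free in the cell. The genes below carry locus identifiers (M433DRAFT_ and a number) without gene names or products, so their functions are not stated, and the transcript of ArAceA itself was not analysed here.

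FPKM sums lay between 884111 and 926713 per library. The number of reads behind them was unknown. The lowest FPKM values put the libraries at relative depths of 0.987 to 1.02. Only values close to the lowest of each gene entered, which holds the estimate near 1, so equal depth is not shown. In ∆ArAceA the median gene tested stood 0.12 higher as a log2 difference, without and with copper alike, and the differences below include that shift. Genes listed at 0 numbered 564 to 598 per library in WT, 505 to 526 in WT with copper, 457 to 481 in ∆ArAceA and 452 to 462 in ∆ArAceA with copper.

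The 84 genes were mostly of low level in WT. Over the 84, the median of the group means was 6.83 FPKM in WT against 32.5 FPKM in ∆ArAceA in cultures without copper, and 8.68 against 28.7 FPKM in those with copper. Over the 8741 genes tested, the same medians, in that order, were 19.2, 21.8, 19.0 and 21.3 FPKM. The median of the 84 was below that of the genes tested in WT and above it in ∆ArAceA. The rule asked for a strain difference and a minimum level that the genes tested did not have to meet, so nothing is read from this. In WT without copper 4 of them had means under 1 FPKM, 28 had 1 to 5 FPKM, 34 had 5 to 20 FPKM and 18 had 20 FPKM or more. In ∆ArAceA without copper 12 had at least 100 FPKM and 11 stayed under 10 FPKM.

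**Figure D1:**
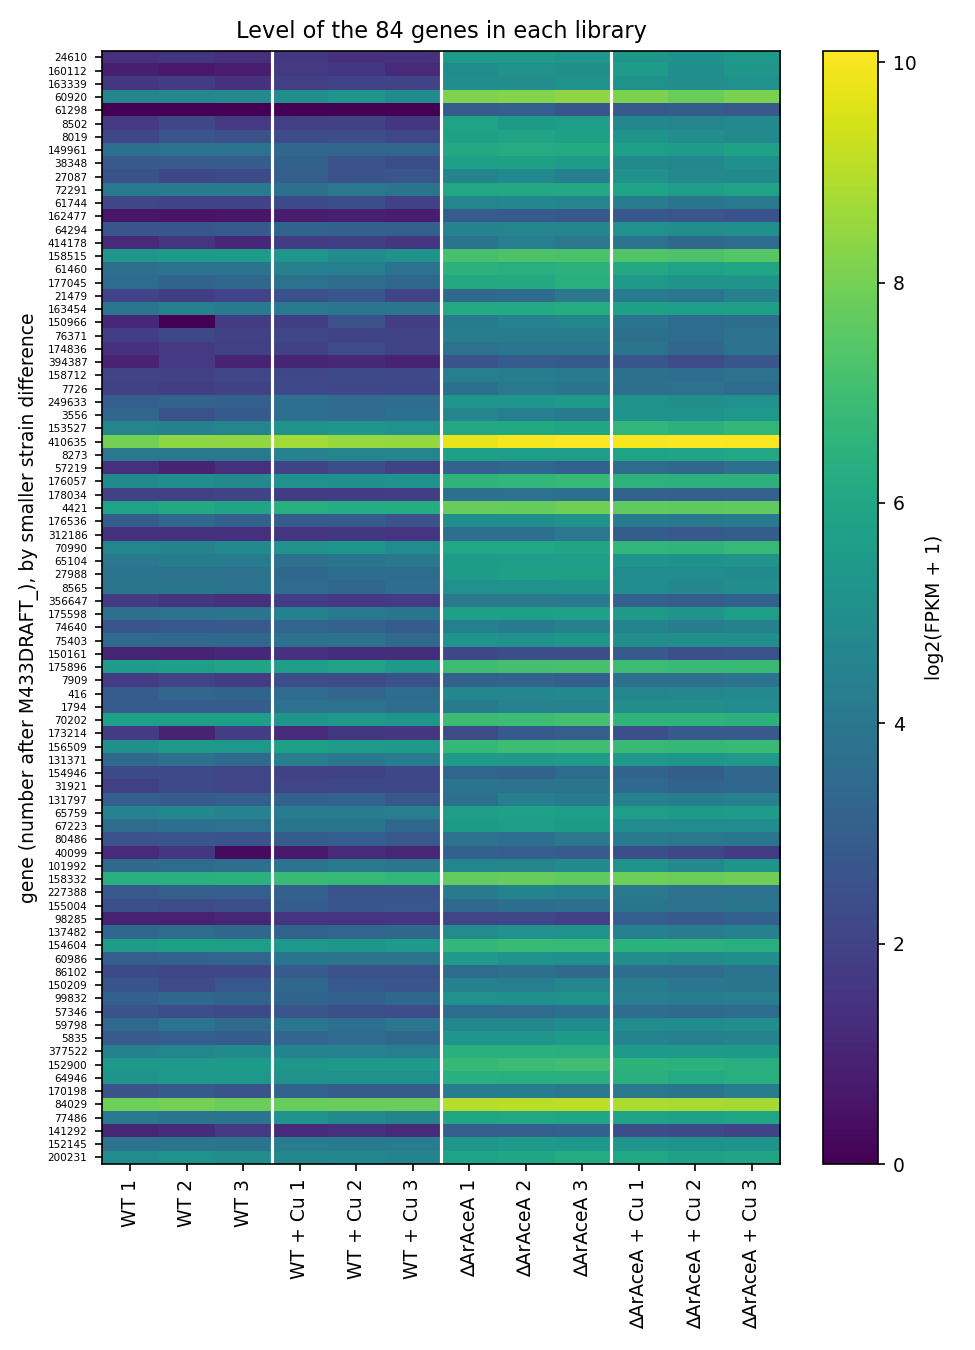
Level of each of the 84 genes (rows, ordered by the smaller of the 2 strain differences) in each of the 12 libraries (columns), as log2(FPKM + 1). The 6 ∆ArAceA columns are brighter than the 6 WT columns in every row.

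Together the 84 genes took 0.176 ± 0.00878% of the FPKM of a WT library without copper and 0.195 ± 0.00521% in WT with copper, against 0.607 ± 0.0296% in ∆ArAceA and 0.549 ± 0.0161% in ∆ArAceA with copper. Without the most abundant of them, M433DRAFT_410635, the shares were 0.142 ± 0.00492%, 0.153 ± 0.00345%, 0.496 ± 0.0169% and 0.434 ± 0.0191%. Single libraries shifted the genes little within a group. The median deviation of the 84 from their group means on the log2 scale ran from -0.076 in replicate 2 of ∆ArAceA with copper to 0.04 in replicate 3 of ∆ArAceA.

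The strain difference was larger without copper in most of the genes. The median log2 difference over the 84 was 1.78 without copper and 1.32 with copper, against 0.12 in both conditions over all genes tested. As ratios of means, taken over the 83 genes not listed at 0 in WT, the medians were 3.87-fold and 2.69-fold, and the ranges 2.03-fold to 45.3-fold and 2.03-fold to 20.6-fold. The difference shrank in copper in 71 of the 84, where it did so in 53% of all genes tested, and it grew in the other 13. It shrank by at least 0.5 in 33 of the 84, with a background of 17.2%. In 32 genes the 2 differences lay within 0.25 of each other. The rule used both differences and bounded the copper responses unevenly, which limits how far a difference can shrink or grow. These counts describe the chosen genes, and nothing is read from their distance to all genes tested.

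The libraries of the strains did not overlap in any of the 84. All 3 ∆ArAceA libraries lay above all 3 WT libraries in the 84 without copper, as in 42.8% of the genes tested, and with copper, as in 43.1%. The lowest of the 6 ∆ArAceA libraries exceeded the highest of the 6 WT libraries in all 84, where 17.4% of the genes tested did so. It was at least 2-fold as high in 37 of the 84, against 0.984% of the genes tested. Without copper the lowest ∆ArAceA library was 1.51-fold to 37.1-fold above the highest WT library, with a median of 3.21-fold over 83 genes, and with copper it was 1.52-fold to 16.7-fold above, with a median of 2.30-fold. All 84 genes passed the low-level filter of the fit and were called higher in ∆ArAceA by limma, at an adjusted p under 0.05, in both conditions. Over all genes tested, 40.8% were called higher without copper and 35.4% with copper, and 17.9% and 11.4% were called lower. After median-of-ratios scaling, the shares called higher were 30.9% and 21.7%, and those called lower 31.7% and 21.5%. The rule used both contrasts, so nothing is read from these counts.

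**Figure D2:**
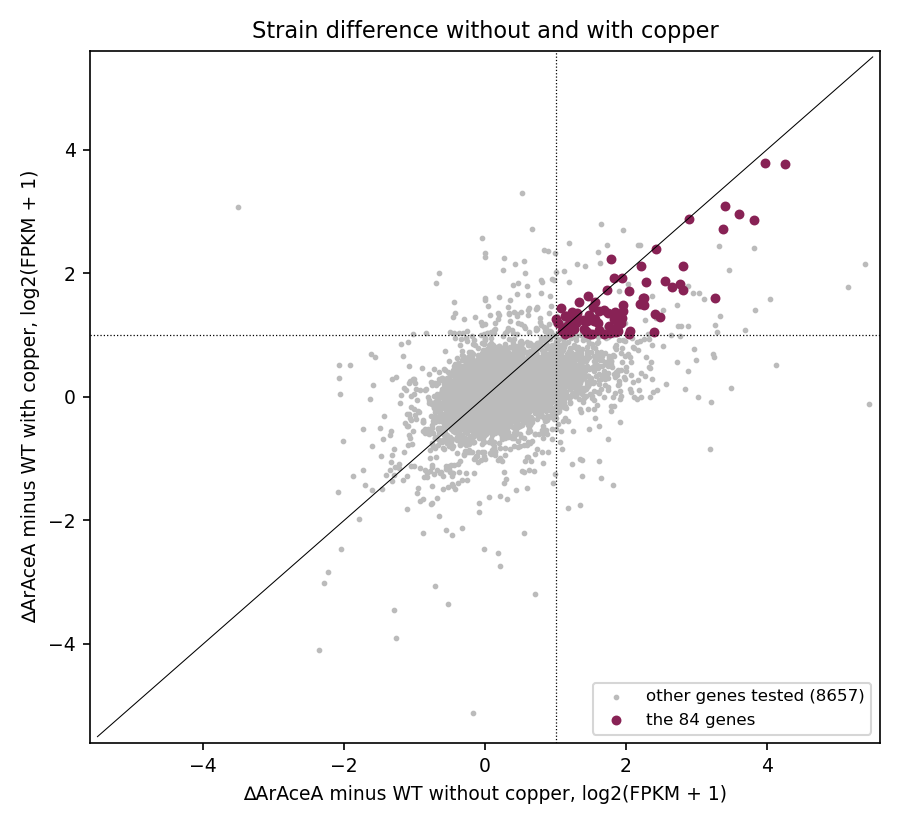
Difference between ∆ArAceA and WT with copper (vertical) against that without copper (horizontal), each as the difference of log2(mean FPKM + 1), for the 84 genes (dark red) and the other 8657 genes tested (grey). Dotted lines mark the threshold of 1 and the solid line equal differences, and 71 of the 84 genes lie below the solid line.

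The differences were next read in libraries left out when the rule was applied. The rule itself was set with earlier results of these data known, so these libraries are not fully separate from the choice. The rule was applied to 2 libraries per group, leaving out those numbered 1, 2 or 3 in turn, and the 4 left-out libraries gave a difference without copper and another with copper. Of 85 genes chosen without replicate 1, 60 (70.6%) had both differences at 1 or more in the left-out libraries. Of 87 genes chosen without replicate 2 it was 65 (74.7%), and of 83 chosen without replicate 3 it was 65 (78.3%). Among all genes tested, 1.75%, 1.57% and 1.83% had both differences at 1 or more in the same libraries.

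The sizes were close in the left-out libraries. The median difference without copper was 1.67, 1.77 and 1.68 in the libraries that chose the genes, and 1.70, 1.69 and 1.70 in the left-out ones. With copper it was 1.30, 1.35 and 1.33 in the choosing libraries, and 1.33, 1.18 and 1.37 in the left-out ones. Both differences were above 0 in 85 of 85, 85 of 87 and 82 of 83 genes. Among all genes tested, 47.8%, 39.7% and 47.7% had both above 0 in the same libraries. The 3 exceptions were not among the 84, and they are named here because they are so few. M433DRAFT_59630 had 2.41, 36.1 and 10.3 FPKM in WT, and M433DRAFT_42803 had 1.69, 2.63 and 28.5 FPKM, so that a single WT library stood high in each. M433DRAFT_35777 lay between 0.14 and 6.43 FPKM in every library. Replicate numbers were used here only to name libraries, and whether they mark cultures handled together is not known.

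**Figure D3:**
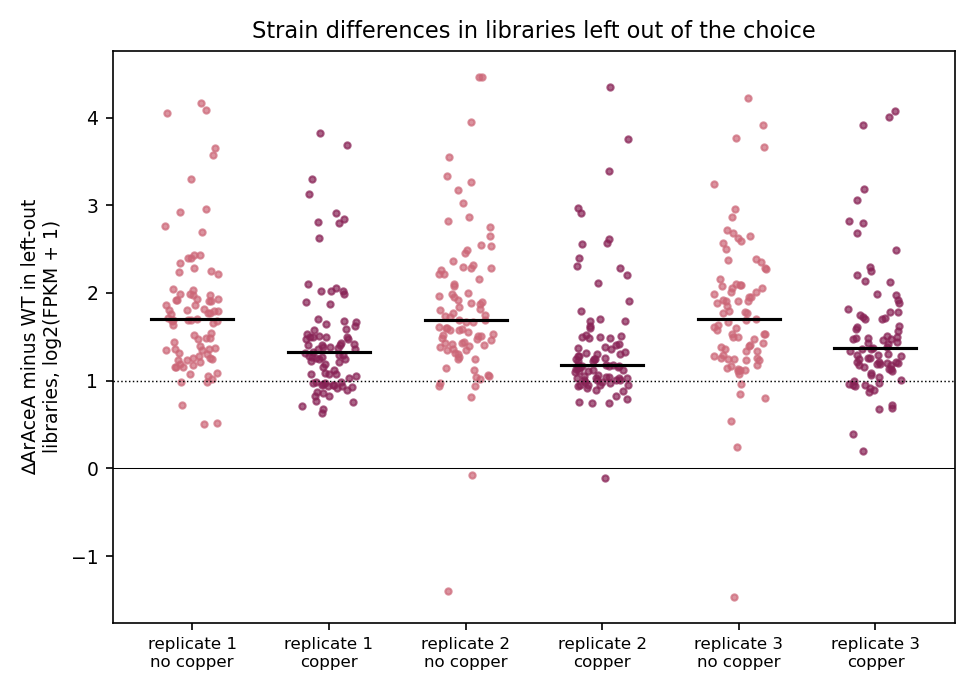
Difference between ∆ArAceA and WT in the left-out libraries, log2(FPKM + 1), for genes chosen from the other 2 libraries of each group (85, 87 and 83 genes for replicates 1, 2 and 3). Each point is a gene, thick lines are medians (1.70, 1.69 and 1.70 without copper, 1.33, 1.18 and 1.37 with copper), and the dotted line marks the threshold of 1.

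The 8 genes with the largest difference kept in both conditions ran from nearly silent to well expressed in WT. M433DRAFT_24610 led them, with 1.66, 1.88 and 1.64 FPKM in WT, 2.13, 1.70 and 1.79 FPKM in WT with copper, 43.2, 43.5 and 38.9 FPKM in ∆ArAceA and 39.3, 35.6 and 41.0 FPKM in ∆ArAceA with copper. It was 24.2-fold higher without copper and 20.6-fold higher with copper, and the copper libraries of each strain overlapped with those without copper. M433DRAFT_160112 had 0.79, 0.60 and 0.69 FPKM in WT, 2.28, 2.09 and 1.39 FPKM in WT with copper, 29.3, 34.3 and 30.5 FPKM in ∆ArAceA and 45.5, 31.4 and 39.3 FPKM in ∆ArAceA with copper. Its ratio was 45.3-fold without copper, the highest of the 84, and 20.2-fold with copper, since the WT level was 2.77-fold higher in copper.

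M433DRAFT_163339 had 2.11, 2.48 and 1.70 FPKM in WT, then 2.73, 3.13 and 3.17 FPKM in WT with copper, against 29.6, 30.3 and 35.9 FPKM in ∆ArAceA and 35.7, 30.0 and 33.9 FPKM in copper-treated ∆ArAceA. The ∆ArAceA libraries of the 2 conditions overlapped, at 15.2-fold and 11.0-fold above WT. M433DRAFT_60920 was the abundant gene of this group, with 23.1, 24.4 and 26.4 FPKM in WT, 30.7, 37.0 and 28.9 FPKM in WT with copper, 286, 296 and 346 FPKM in ∆ArAceA and 276, 225 and 271 FPKM in ∆ArAceA with copper. In both strains its copper libraries stood apart from those without copper, higher in WT and lower in ∆ArAceA, and the ratio went from 12.6-fold to 8.0-fold.

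M433DRAFT_61298 was listed at 0 in all 6 WT libraries, the only one of the 84 to be so. It had 6.61, 7.14 and 5.6 FPKM in ∆ArAceA and 6.19, 6.83 and 6.08 FPKM in ∆ArAceA with copper, and these conditions overlapped. No ratio is given against a group listed at 0.

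M433DRAFT_8502 and M433DRAFT_8019 had the largest drop in copper among these 8. M433DRAFT_8502 had 2.19, 3.46 and 2.20 FPKM in WT, then 2.77, 2.89 and 2.1 FPKM in WT with copper, but 56.3, 43.9 and 49.5 FPKM in ∆ArAceA and 25.4, 22.9 and 27.2 FPKM in ∆ArAceA with copper. M433DRAFT_8019 had 3.39, 5.26 and 4.70 FPKM in WT, 3.92, 4.23 and 3.42 FPKM in WT with copper, 54.4, 59.4 and 53.1 FPKM in ∆ArAceA and 36.1, 29.7 and 27.3 FPKM in ∆ArAceA with copper. In both genes the WT conditions overlapped and the ∆ArAceA conditions did not, and the ratios went from 19.1-fold to 9.73-fold and from 12.5-fold to 8.04-fold.

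In M433DRAFT_149961 copper moved both strains alike. It had 11.9, 12.7 and 13.0 FPKM in WT, 8.96, 8.74 and 8.70 FPKM in WT with copper, 69.3, 74.3 and 71.6 FPKM in ∆ArAceA and 50.6, 46.5 and 53.5 FPKM in copper-treated ∆ArAceA. The copper level was 0.703 of that without copper in WT and 0.700 in ∆ArAceA, and the strain ratio was 5.73-fold and 5.71-fold.

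**Figure D4:**
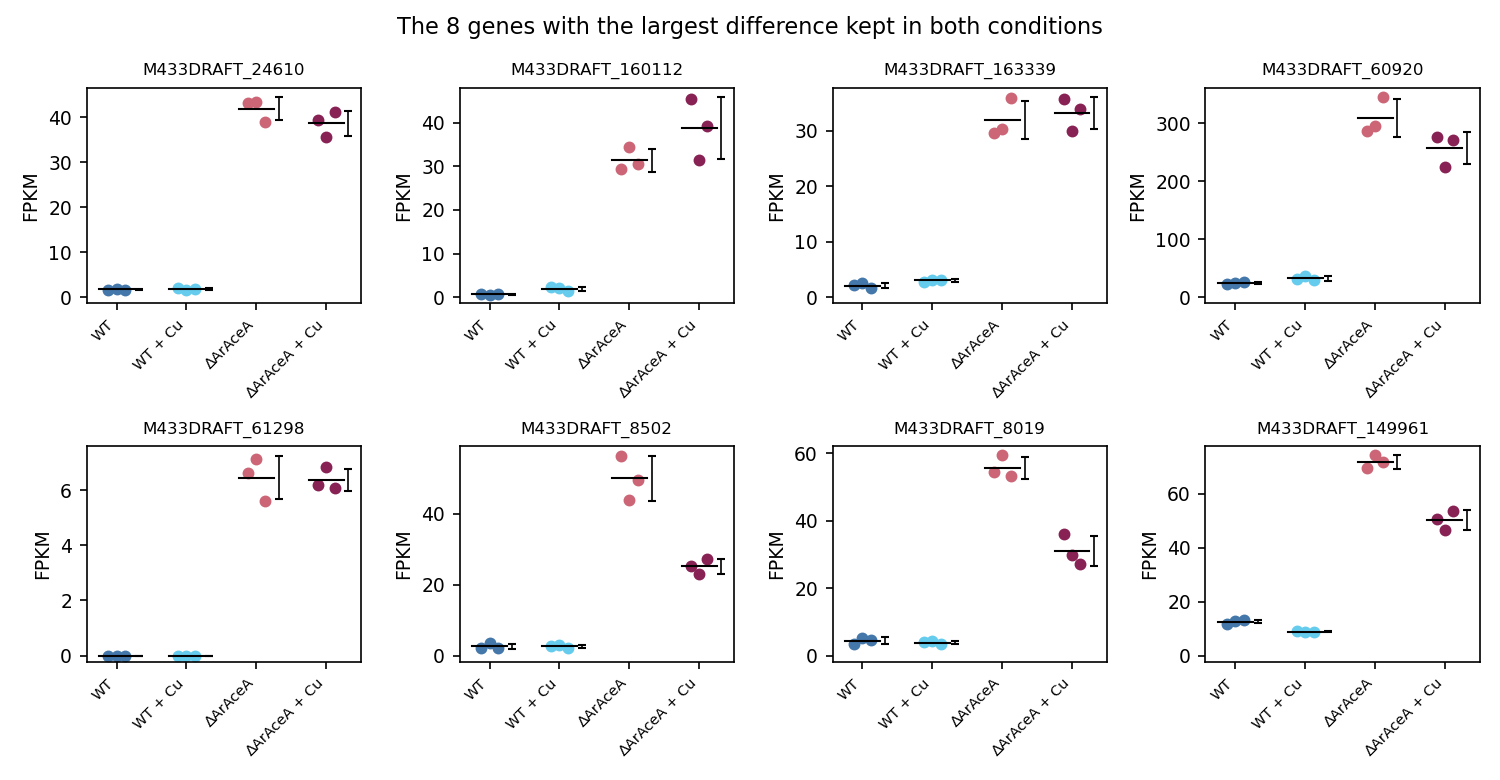
FPKM in each library for the 8 genes with the largest smaller strain difference. Points are libraries (n = 3 per group), horizontal lines are group means and bars beside them are ± SD. The ∆ArAceA points stand above the WT points in each panel, and in copper the mean of M433DRAFT_8502 in ∆ArAceA went from 49.9 to 25.2 FPKM.

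After these 8, the difference tapered. The smaller of the 2 log2 differences was at least 2 in 10 of the 84, from 1.5 to 2 in 14 and from 1 to 1.5 in 60, and 21 of the 60 lay under 1.1. M433DRAFT_38348 and M433DRAFT_27087 complete the first 10. M433DRAFT_27087, named after its values were seen, had WT means of 4.06 ± 0.671 FPKM, and 5.86 ± 1.35 FPKM in copper, beside ∆ArAceA means of 22.4 ± 3.07 and 28.7 ± 3.92 FPKM. Genes quiet in WT had the larger ratios. The 32 genes under 5 FPKM in WT had median ratios of 5.69-fold without copper and 3.31-fold with copper, the 34 genes from 5 to 20 FPKM had 3.88-fold and 2.51-fold, and the 18 genes of at least 20 FPKM had 2.71-fold and 2.42-fold. The minimum of 5 FPKM in the highest group demands a larger ratio of a gene that starts low. So does the 1 added to each mean before the log2, so the trend is in part built into the rule.

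The 4 most abundant of the 84 in ∆ArAceA had strain ratios of 2.03-fold to 3.22-fold, apart from M433DRAFT_60920, given above. M433DRAFT_410635 had 255, 331 and 340 FPKM in WT, 413, 371 and 366 FPKM in WT with copper, 874, 1005 and 1099 FPKM in ∆ArAceA and 986, 1049 and 1032 FPKM in ∆ArAceA with copper. It was 3.22-fold and 2.67-fold higher in ∆ArAceA, with WT higher in copper and the ∆ArAceA conditions overlapping. M433DRAFT_84029 had 231, 256 and 228 FPKM in WT, 215, 224 and 221 FPKM in WT with copper, 503, 527 and 540 FPKM in ∆ArAceA and 464, 443 and 429 FPKM in ∆ArAceA with copper. Its ratios, 2.20-fold and 2.03-fold, were close to the limit of the rule. M433DRAFT_158332 had 85.1, 83.6 and 87.4 FPKM in WT, 115, 107 and 102 FPKM in WT with copper, 202, 217 and 199 FPKM in ∆ArAceA and 237, 225 and 238 FPKM in ∆ArAceA with copper. Both its strains stood higher in copper, and the ratios were 2.41-fold and 2.16-fold.

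Copper responses had the same sign in both strains in 50 of the 84 genes and opposite signs in 33. The median log2 response was 0.25 in WT and -0.21 in ∆ArAceA, against -0.01 and -0.04 over all genes tested. The rule bounded the response unevenly, at -0.5 to 1 in WT and -1 to 1 in ∆ArAceA, so the medians are a description. The response was above 0 in 55 of the 84 in WT, with a background of 47.2%, and below 0 in 60 of the 84 in ∆ArAceA, with a background of 54.5%. It was above 0 in WT and below 0 in ∆ArAceA in 32 genes (24.6% of the genes tested), below 0 in both in 27 (29.8%), and above 0 in both in 23 (22.7%). In 1 gene, M433DRAFT_158515, it was below 0 in WT and above 0 in ∆ArAceA, and M433DRAFT_61298 had no response to give in WT. The strain difference in each condition is tied to these responses, because they share the same libraries.

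By limma at an adjusted p under 0.05, 29 of the 84 were called higher with copper in WT, where 10.6% of the genes tested were, and 11 were called lower, against 10.7%. Without replicate 2 of WT the 11 became 6, against 725 of the 8730 genes then tested. In ∆ArAceA 12 were called higher, against 24.7%, and 41 lower, against 31.5%. The copper response was called more negative in ∆ArAceA than in WT for 42 genes, against 25.6%, and more positive for 1, against 20.2%. Since the rule bounds these responses, the counts describe the chosen genes and nothing is read from them.

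**Figure D5:**
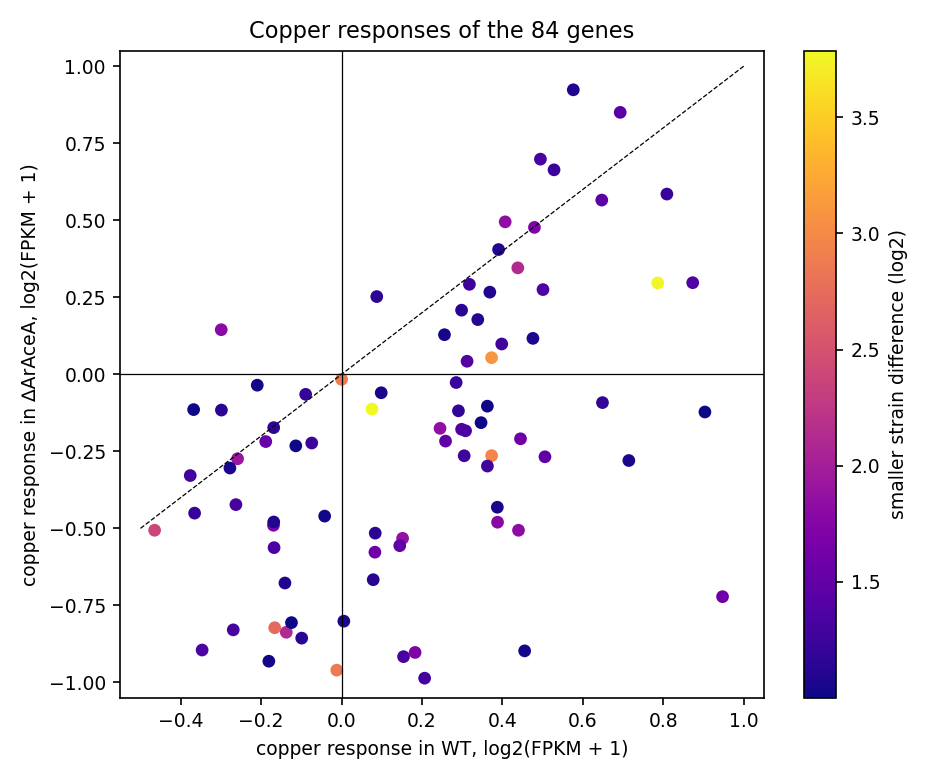
Copper response in ∆ArAceA (vertical) against that in WT (horizontal) for the 84 genes, each as a difference of log2(mean FPKM + 1), coloured by the smaller of the 2 strain differences. The dashed line marks equal responses, and 71 of the 84 genes lie below it, where the strain difference is smaller in copper.

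By the size of the response in ∆ArAceA the genes formed 3 classes, divided at a log2 response of 0.5, which is 1.41-fold. In 23 genes the level was lower in copper by that much. Their median log2 response was -0.81 in ∆ArAceA and 0.01 in WT, and their median strain difference went from 2.26 to 1.34. In 55 genes the response in ∆ArAceA lay between -0.5 and 0.5, and the median strain difference went from 1.60 to 1.27. In 6 genes the level was higher in copper in ∆ArAceA by that much. All 6 were also higher in WT, with median log2 responses of 0.68 in ∆ArAceA and 0.61 in WT, and their median strain difference was 1.39 without copper and 1.44 with copper. For each gene the change in strain difference is the response in ∆ArAceA minus that in WT, so the classes in part fix it.

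The 4 genes with the most negative response in ∆ArAceA included M433DRAFT_8502, given above. M433DRAFT_356647 had 2.36, 1.97 and 1.64 FPKM in WT, 2.55, 2.32 and 2.48 FPKM in WT with copper, 15.3, 15.7 and 16.0 FPKM in ∆ArAceA and 7.47, 6.93 and 7.83 FPKM in copper-treated ∆ArAceA. The ∆ArAceA conditions were well apart, at 0.473 of the level without copper, and the strain ratio went from 7.87-fold to 3.02-fold. M433DRAFT_377522 had 20.9, 23.3 and 26.6 FPKM in WT, then 21.7, 21.0 and 19.4 FPKM in WT with copper, against 85.3, 84.1 and 81.2 FPKM in ∆ArAceA and 43.1, 42.7 and 44.3 FPKM in ∆ArAceA with copper. WT overlapped between conditions and ∆ArAceA did not. M433DRAFT_312186 had WT means of 1.69 ± 0.136 FPKM, and 2.0 ± 0.0737 FPKM in copper, beside ∆ArAceA means of 13.3 ± 1.71 and 6.57 ± 0.505 FPKM. Its ratio went from 7.85-fold to 3.29-fold.

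The 4 genes with the most positive response in ∆ArAceA were also higher in WT with copper. M433DRAFT_98285 had 0.95, 0.91 and 1.11 FPKM in WT, 1.89, 1.97 and 2.04 FPKM in WT with copper, 3.35, 3.49 and 2.80 FPKM in ∆ArAceA and 7.14, 6.3 and 7.53 FPKM in copper-treated ∆ArAceA. The 4 groups were in steps without overlap, with copper ratios of 1.99-fold in WT and 2.18-fold in ∆ArAceA. M433DRAFT_3556 had 9.07, 4.67 and 6.25 FPKM in WT, 11.8, 10.6 and 11.7 FPKM in WT with copper, 23.2, 19.7 and 17.7 FPKM in ∆ArAceA and 35.7, 34.7 and 41.2 FPKM in ∆ArAceA with copper, and its groups did not overlap either. M433DRAFT_70990 had 24.2 ± 2.39 FPKM in WT cultures without copper and 34.4 ± 5.18 FPKM in those with it, while ∆ArAceA went from 62.4 ± 2.98 to 102 ± 6.69 FPKM. M433DRAFT_7909 had 2.69 ± 0.428 FPKM in WT cultures without copper and 4.32 ± 0.369 FPKM in those with it, while ∆ArAceA went from 7.65 ± 0.564 to 12.7 ± 0.647 FPKM. In these 4 the strain ratio was 2.58-fold to 3.25-fold without copper and 2.94-fold to 3.55-fold with it.

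In WT the 3 most positive responses stood beside small or opposite ones in ∆ArAceA. M433DRAFT_150966 had 1.2, 0 and 2.48 FPKM in WT, 2.67, 4.69 and 2.52 FPKM in WT with copper, 16.3, 21.1 and 23.9 FPKM in ∆ArAceA and 13.7, 10.6 and 11.7 FPKM in ∆ArAceA with copper. Replicate 2 of WT was listed at 0, and the strain difference without copper was 3.27 on the log2 scale with it and 2.92 without it, while the copper response in WT was 0.95 and 0.60. M433DRAFT_77486 had 15.8, 13.5 and 14 FPKM in WT, then 34.3, 26.8 and 22.4 FPKM in WT with copper, against 60.1, 64.0 and 62.6 FPKM in ∆ArAceA and 55.5, 54.7 and 61.0 FPKM in copper-treated ∆ArAceA. The WT level was 1.93-fold higher in copper, and the strain ratio went from 4.32-fold to 2.05-fold. M433DRAFT_57219 had 1.41 ± 0.341 FPKM in WT cultures without copper and 3.42 ± 0.681 FPKM in those with it, while ∆ArAceA went from 8.41 ± 0.867 to 10.6 ± 1.5 FPKM.

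The 3 most negative responses in WT lay between -0.46 and -0.37, near the bound of the rule. M433DRAFT_149961, given above, was the first. M433DRAFT_8565 had 13.6, 14.1 and 13.3 FPKM in WT, 10.6, 9.18 and 11.1 FPKM in WT with copper, 33.4, 35.3 and 36.9 FPKM in ∆ArAceA and 29.1, 24.3 and 30.1 FPKM in ∆ArAceA with copper. Both strains stood lower in copper, at 0.754 and 0.791 of the level without it. M433DRAFT_200231 had 28.3, 34.4 and 31.3 FPKM in WT, 24.1, 25.6 and 22.5 FPKM in WT with copper, 56.9, 61.2 and 73.0 FPKM in ∆ArAceA and 64.0, 54.2 and 58.1 FPKM in ∆ArAceA with copper. Its WT libraries were lower in copper while those of ∆ArAceA overlapped.

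Copper left 10 of the 84 within 0.25 on the log2 scale in both strains. The 3 steadiest were M433DRAFT_61298, given above, M433DRAFT_173214 and M433DRAFT_57346. M433DRAFT_173214 had 2.45, 0.95 and 2.59 FPKM in WT, 1.31, 2.13 and 2.01 FPKM in WT with copper, 3.91, 6.29 and 7.44 FPKM in ∆ArAceA and 4.52, 6.21 and 6.00 FPKM in ∆ArAceA with copper. Its conditions overlapped in both strains, as did those of M433DRAFT_57346, which had WT means of 4.33 ± 0.558 FPKM, and 4.71 ± 0.615 FPKM in copper, beside ∆ArAceA means of 11.3 ± 0.784 and 10.8 ± 0.612 FPKM. M433DRAFT_158515, named after its values were seen, was the gene whose response was called more positive in ∆ArAceA. It had 42.2 ± 4.26 FPKM in WT cultures without copper and 34.1 ± 4.93 FPKM in those with it, while ∆ArAceA went from 148 ± 4.40 to 164 ± 8.16 FPKM, so that its strain ratio was 3.51-fold without copper and 4.80-fold with it.

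The 84 varied between replicates by similar amounts in the 4 groups. Over genes of at least 5 FPKM, the median coefficient of variation of the 84 was 8.11% in WT (52 genes), 9.70% in WT with copper (55), 7.33% in ∆ArAceA (82) and 7.37% in ∆ArAceA with copper (82). Over all genes tested of that level it was 6.71%, 4.93%, 4.69% and 4.62%. The largest values among the 84 were 33.5% for M433DRAFT_3556 in WT, 31.2% for M433DRAFT_38348 in WT with copper and 30.8% for M433DRAFT_150209 in WT with copper. M433DRAFT_38348 had 5.98, 6.5 and 6.62 FPKM in WT, 7.70, 5.08 and 4.31 FPKM in WT with copper, 53.2, 51.9 and 47.4 FPKM in ∆ArAceA and 25.8, 25.4 and 32.8 FPKM in ∆ArAceA with copper. M433DRAFT_150209 had 5.24, 4.15 and 5.67 FPKM in WT, 9.30, 5.93 and 5.39 FPKM in WT with copper, 20.9, 18.9 and 23.6 FPKM in ∆ArAceA and 17.7, 14.5 and 14.1 FPKM in ∆ArAceA with copper. In both the spread lay in WT with copper, and the lowest ∆ArAceA library with copper was 3.29-fold above the highest WT one for M433DRAFT_38348 and 1.52-fold above it for M433DRAFT_150209.

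The threshold of 1 cut through a continuous range. Just inside it, the smaller difference was 1.0 in M433DRAFT_200231, and 1.01 in M433DRAFT_152145 and M433DRAFT_141292. M433DRAFT_152145 had WT means of 13.6 ± 0.465 FPKM, and 17.5 ± 1.16 FPKM in copper, beside ∆ArAceA means of 40.6 ± 2.09 and 36.3 ± 1.27 FPKM, and M433DRAFT_141292 had 1.62 ± 0.515, 1.40 ± 0.208, 7.45 ± 0.335 and 3.83 ± 0.570 FPKM in the same order. Just outside, it was 0.99 in M433DRAFT_10129, M433DRAFT_3239 and M433DRAFT_73757. M433DRAFT_73757 had 59.6 ± 5.46, 70.5 ± 1.32, 185 ± 10.4 and 141 ± 5.84 FPKM in that order, and M433DRAFT_3239 had 10.6 ± 0.260, 12.4 ± 1.65, 27.3 ± 0.919 and 25.8 ± 1.15 FPKM. In M433DRAFT_10129 the strains overlapped in copper, with 0.82, 2.61 and 5.37 FPKM in WT against 10.4, 8.56 and 5.18 FPKM in ∆ArAceA.

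Other genes raised in both conditions were left out for their copper responses. Of the 125 genes, 27 had a response of -1 or lower in ∆ArAceA and 10 had 1 or higher there. Of the 88 that remained, 4 had -0.5 or lower in WT. A further 1 gene met all conditions but for a mean of at least 1000 FPKM, and 15 met all but the minimum of 5 FPKM.

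The authors' deposited table gave all 84 genes a positive log2 ratio of ∆ArAceA to WT with a Q under 0.05 in both conditions, where 23.9% of its genes without copper and 15.6% with copper were listed so. The highest Q in the authors' deposited table among the 84 was 0.0128 without copper and 0.0446 with copper. Its log2 ratios had medians of 1.75 and 1.27 over the 84, and they were under 1 in 4 genes without copper and in 14 with copper. For M433DRAFT_150966, with its WT library at 0, the authors' deposited table gave 1.69 without copper, against 3.27 from the mean FPKM. For copper in WT the authors' deposited table listed 19 of the 84 higher and 4 lower at that Q, against 6.16% and 5.46% of its genes, and for copper in ∆ArAceA 15 higher and 39 lower, against 24.3% and 22.7%. It used the same libraries, so it is no separate evidence.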

How the data were processed

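The 12 libraries came from mycelia of Acidomyces richmondensis MEY-1, 3 cultures in each of 4 groups, grouped and numbered by the sample titles. RNA was, per the labels' protocols, isolated with TRIzol, cleaned on columns and made into libraries by standard Illumina protocols. For strand, read length, batches, genome build and annotation nothing is stated in the sources used here. HISAT2 2.1.0, RSEM 1.2.8 and DESeq2 were named without role or setting, per the submitters' processing notes.

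The authors deposited FPKM per library, already scaled by transcript length and library size, with equal values in the series table and the 12 single-library files. The authors' deposited table also holds a log2 ratio and a Q value, a p-value adjusted by the authors, for each of 4 group comparisons. All FPKM columns matched a sample. A value of 0 means that a gene was listed at 0, and near-identical genes cannot be told apart here. Read counts were not used. Low FPKM values of 390 genes, read as single steps, put relative depths between 0.987 and 1.02. Values further from the lowest of a gene were dropped, so larger differences in depth would not show. Absolute depth is unknown.

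The rule for the 84 genes was applied to the deposited FPKM. limma 3.58.1 in R 4.3.3 (mean-variance trend, robust) was fitted to log2(FPKM + 1) of the 8741 genes that reached an FPKM of 1 in 3 or more libraries, with 1 fit over the 4 groups, 5 contrasts and Benjamini-Hochberg adjustment over all genes tested. The fit was tested on simulated data. Alternatives were a pseudocount of 0.1, no filter, median-of-ratios and upper-quartile scaling, other group summaries, the replicate number as a block, and leaving out libraries. By the naming rule, the genes described singly were the 8 with the largest smaller strain difference, the 4 most abundant in the deletion, the extremes and the steadiest by copper response, those listed at 0 in WT, the 3 most variable, and 3 on each side of the threshold. The members, the rule and these lists were chosen with earlier results of these data known. No table paired the locus identifiers with products, so planned functional lists were not used here.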

Additional observations from a re-analysis of the deposited data

Results flagged for a closer look

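The copper response differed between the strains, by limma's test of the difference of responses over 8741 genes, in 13 of the 29 genes of the 84 described singly under the naming rule. Over all genes tested, 25.6% were called more negative in ∆ArAceA and 20.2% more positive. The rule bounds both responses and some of these genes were named for extreme ones, so the values are a description, nothing is read from the count, and no p is given for single genes. The fitted difference, the log2 response in ∆ArAceA minus that in WT, was -1.80 for M433DRAFT_150966, -1.20 for M433DRAFT_356647, -1.07 for M433DRAFT_312186 and -1.01 for M433DRAFT_77486. It was -0.96 for M433DRAFT_8502, -0.80 for M433DRAFT_150209, -0.76 for M433DRAFT_377522 and -0.70 for M433DRAFT_141292. It was -0.68 for both M433DRAFT_8019 and M433DRAFT_38348, -0.63 for M433DRAFT_60920, -0.58 for M433DRAFT_57219 and -0.50 for M433DRAFT_152145. All 13 were negative, so in each the strain difference was smaller in copper. The WT library of M433DRAFT_150966 listed at 0 enters its value. Groups of 3 libraries are too small for a check on single libraries that stand apart.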

How the results depend on the processing

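The rule gave 84 genes in the FPKM as deposited, 61 after median-of-ratios scaling (59 of them among the 84) and 64 after upper-quartile scaling (60 among the 84). The 25 genes lost under either scaling had smaller strain differences of 1.0 to 1.25, and both scalings kept 59. A pseudocount of 0.1 gave 90 genes (76 among the 84), group medians 91 (79) and no minimum level 99 (84). Leaving out each library in turn gave 81 to 91 genes, and 60 of the 84 were chosen every time. Of the 84, 51 were chosen every time and also kept under both scalings. For the 32 genes described under the naming rule, the strain differences were above 0 in all 960 values recomputed over 15 settings. These genes lay at or near a difference of 1 or above it by choice, so that sign was nearly fixed. By size, 89 of the 960 moved by more than 1 SD between replicates, as did 13 of the 960 values of copper responses. All 84 genes were called higher in ∆ArAceA in both conditions under each setting run, except that 83 were with copper at a pseudocount of 0.1. With 1 library left out, the genes called with copper numbered 23 to 33 higher and 6 to 13 lower in WT, 10 to 15 higher and 33 to 42 lower in ∆ArAceA, and the responses called different 35 to 44 more negative and 1 to 3 more positive in ∆ArAceA. Over the 8667 to 8732 genes tested in those fits, 682 to 916 were called higher and 626 to 951 lower in WT. In ∆ArAceA it was 1884 to 2227 higher and 2442 to 2803 lower. Responses were called more negative there in 2012 to 2242 and more positive in 1552 to 1820. More positive responses were called in 1 gene as deposited, in 2 after median-of-ratios scaling and in 3 after upper-quartile scaling. Over all genes tested the shares were 20.2%, 22.7% and 23%. The rule used or bounded these contrasts, so nothing is read from the counts of genes called. The mean share of genes with both differences of at least 1 in left-out libraries was 74.5%, and 79.0% with a pseudocount of 0.1, 80.9% after median-of-ratios scaling and 80.7% after upper-quartile scaling, where the cause was not tested.

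Same-numbered libraries showed no strong shared deviation, with correlations of -0.175 to 0.0656 over 18 pairs, and the main fit did not pair them. Such correlations cannot show whether same-numbered cultures were handled together. With the replicate block 84 genes were still called higher in ∆ArAceA in both conditions, and 28 higher and 10 lower with copper in WT. Of the 8741 genes tested, 3487 were then called higher in ∆ArAceA without copper and 2945 with copper. In WT, 839 were called higher and 782 lower with copper. Depth limits the genes near 1 FPKM most, and how much could not be measured without read counts.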
